A study of Mus musculus with 9 samples.

Results

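The colony-stimulating factors and their receptors were followed through RNA-seq of primary mouse microglia in which the autism-related genes Chd8 and Tsc2 were silenced. The group holds 9 genes chosen by name, of 54119 genes with a transcript in the table: the ligands Csf3, Csf1, Il34 and Csf2, and the receptor genes Csf3r, Csf1r, Csf2ra, Csf2rb and Csf2rb2. Csf3 was picked out because it was known to be lower after Tsc2 siRNA in these same libraries, so that difference is described here without a test. Gene counts were the sums over a gene's transcripts. The filter on low counts was passed by 8 of the 9 genes and by 16272 genes in all; Il34 did not pass.

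All 9 libraries were total RNA from microglia of wild-type C57BL/6J mice, shaken off mixed glial cultures of whole brains of E18 embryos and transfected with small interfering RNA (siRNA), which directs the cleavage of an mRNA with a matching sequence. The 3 groups (n = 3 each) received a negative control siRNA, an siRNA against Chd8, which encodes a chromatin remodeler, or an siRNA against Tsc2, which encodes a subunit of the complex that restrains mTORC1 kinase. RNA was isolated after 3 days of siRNA. The results of the study speak of 3 days of stimulation with lipopolysaccharide (LPS), a bacterial cell wall component, while the sample descriptions name no LPS. The methods describe no such step for the sequenced cells, and the experiments they list as unstimulated do not include the RNA-seq, so the LPS status of these libraries could not be settled from the sources used here. The medium held supernatant of the mixed glial cultures, which itself can contain colony-stimulating factors. Separate brains gave the replicate cultures, and the samples carry replicate numbers 1, 2 and 3 in every group, without a statement on whether equal numbers share a culture.

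Csf1r signalling keeps microglia and other macrophages alive and proliferating, and the receptor has a pair of ligands, Csf1 and Il34. Csf2 (GM-CSF) acts through a receptor of a specific alpha chain, Csf2ra, and a beta chain, Csf2rb; mice carry an additional beta chain gene, Csf2rb2, best known for its part in the interleukin-3 receptor. Csf3 (G-CSF) is an inflammatory cytokine that drives the production of neutrophils through the homodimeric receptor Csf3r, and macrophage-lineage cells are among its known sources. In bulk RNA, fewer cells of a type and less RNA per cell cannot be told apart.

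Total counts per library ranged from 16913448 to 33213801. The siRNA targets were lower in their own libraries: Chd8 was 38.2 to 86.8 in normalized CPM (read counts scaled to library size with edgeR's TMM factors) in its 3 libraries, against 93.6 to 118 in the controls, and Tsc2 was 24.6 to 36.5 against 38.9 to 40.8. With the replicate number as a block, edgeR's adjusted p was 0.00783 for Chd8 and 0.22 for Tsc2. The defining markers of microglia were unevenly present. Complement gene C1qb lay between 296 and 408 TPM (counts scaled to transcript length and library size) over the 9 libraries, but the homeostatic markers Cx3cr1, P2ry12 and Tmem119 lay between 0.987 and 1.70, 0.167 and 0.684, and 0 and 0.270 TPM. Summed over all 14 microglia markers, the level was 1048 to 1143 TPM in control, 1035 to 1459 in Chd8 and 1184 to 1416 in Tsc2 siRNA.

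Csf3 lies on chromosome 11 (GRCm38, 98701263 to 98703629, + strand) and has a single annotated transcript in the table. In normalized CPM, control siRNA libraries 1, 2 and 3 held 167, 96.4 and 169. Chd8 siRNA libraries held 137, 69.1 and 129. Tsc2 siRNA libraries held 77.1, 52.7 and 86.6. All 3 Tsc2 siRNA libraries were below all 3 control libraries, and in every group replicate 2 was the lowest. The estimated counts behind these values were between 1050 and 4423 per library. The means were 144 ± 41.2 (SD, n = 3) in control and 72.1 ± 17.5 (SD, n = 3) in Tsc2 siRNA, 50.1% of control in the fit, for a log2 fold change of −0.997 (standard error 0.30). Compared at equal replicate numbers, the log2 differences on CPM with a pseudocount of 0.5 were −1.11, −0.87 and −0.96, and the fit with the replicate block gave −0.98 (standard error 0.09). This contrast chose the gene, so no p-value is given. The microglia marker sum was higher in every Tsc2 siRNA library than in every control library, as was the sum of border macrophage markers (197 to 250.5 TPM against 137 to 168), which Ms4a7 (127 to 233 TPM over the 9 libraries) nearly makes up while Lyve1, Cd163 and Cd209f were at or near 0. At each replicate number the oligodendrocyte-lineage sum was lower in Tsc2 siRNA than in control (2.25 to 4.50 against 4.09 to 5.52 TPM). So was the fibroblast sum, while the endothelial sum was higher. The part of these cell types in the Csf3 difference was not tested. Groups that did not overlap were found in 8.13% of all genes tested in this contrast and in 1 of 8 members, Csf3, from which nothing is read.

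**Figure D1:**
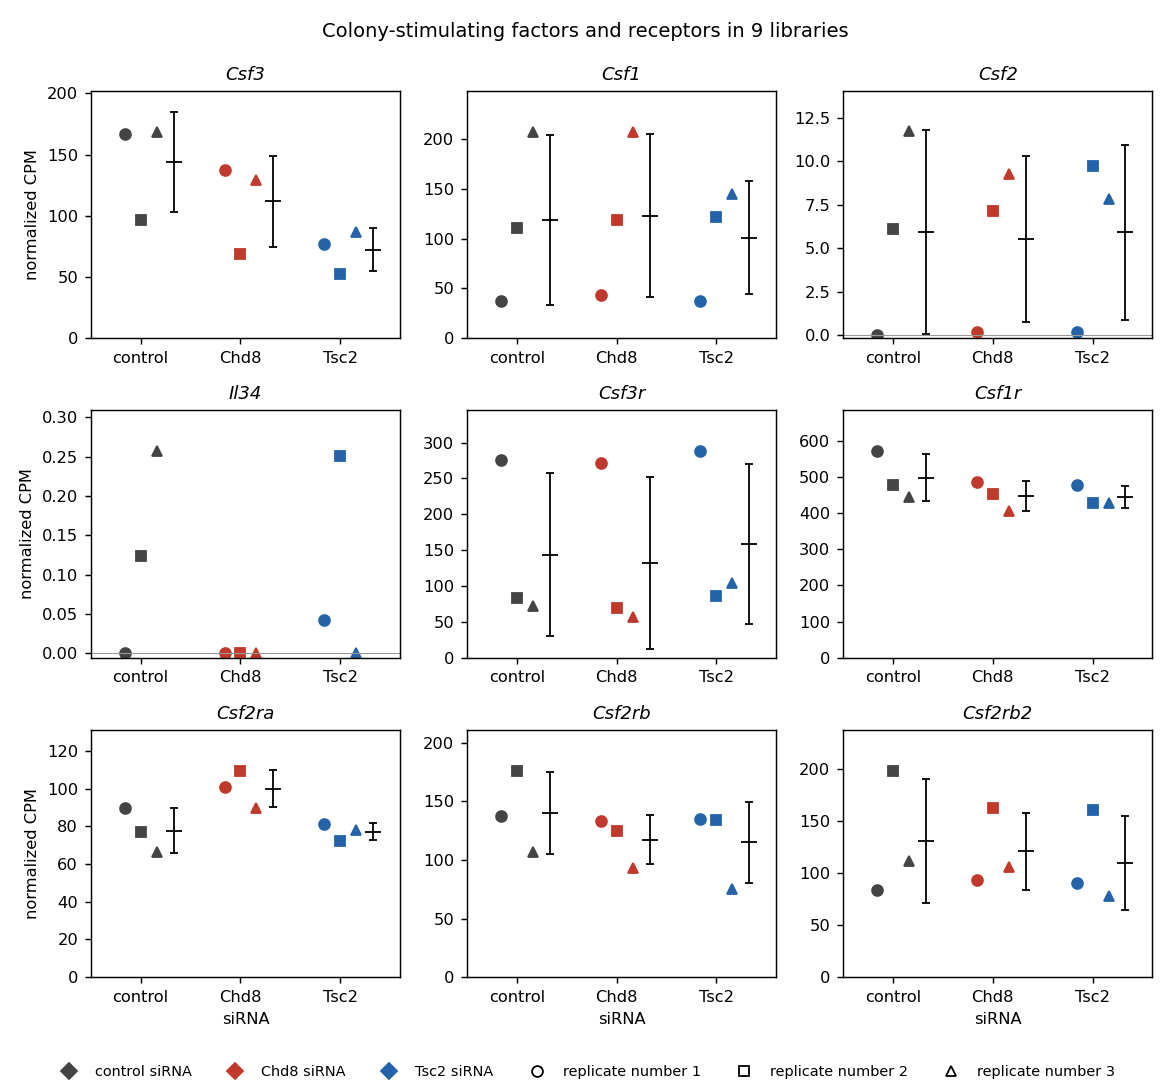
Normalized CPM (y axis, linear) of the 9 genes by siRNA (x axis); point shape gives the replicate number, and black marks give mean ± SD of 3 libraries (not drawn for Il34, which was near 0). The Tsc2 siRNA libraries of Csf3 sit between 52.7 and 86.6, below the controls at 96.4 to 169, while in Csf1, Csf2 and Csf3r the libraries numbered 1 stand apart in every group.

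After Chd8 siRNA, Csf3 averaged 112 ± 37.2 CPM (SD, n = 3), and the groups overlapped. Its log2 fold change against control was −0.36 (standard error 0.30). At equal replicate numbers Csf3 was lower in 3 of 3 pairs (−0.28, −0.48 and −0.39), a pattern shared by 18.3% of all genes. With the replicate block the change was −0.38 (standard error 0.09), short of a 1.5-fold change. These values share their control libraries with the contrast in which Csf3 was chosen, so they too are described without a test.

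The Tsc2 siRNA libraries on which Csf3 was chosen also enter the comparison with Chd8 siRNA, which is therefore described without a test. The log2 fold change of Tsc2 against Chd8 siRNA was −0.63 (standard error 0.30), and −0.60 (standard error 0.09) with the replicate block, with differences at equal numbers of −0.83, −0.39 and −0.57. The groups overlapped, since Chd8 siRNA library 2 (69.1 CPM) lay below Tsc2 siRNA libraries 1 and 3. Leaving out a library moved the blocked value between −0.68 and −0.51.

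Csf1, the main ligand of Csf1r, lies on chromosome 3 (107741048 to 107760469, − strand). Control siRNA libraries 1, 2 and 3 held 37.3, 111 and 207 CPM, Chd8 siRNA libraries 43.1, 119 and 207, and Tsc2 siRNA libraries 37.1, 121 and 144. The 3 groups overlapped, with Tsc2 siRNA reaching less high than the others, and in each the library numbered 1 was the lowest. The log2 fold change was 0.05 (standard error 0.69) for Chd8 and −0.23 (standard error 0.69) for Tsc2 siRNA against control, with 95% intervals of −1.49 to 1.60 and −1.78 to 1.32. With the block the intervals narrowed to −0.14 to 0.33 and −0.37 to 0.10. Transcript Csf1-201 carried 76.7% of the gene's counts (42.2% to 87.6% by library), Csf1-203 12.8% and Csf1-202 5.11%; these shares are estimates that salmon divides among overlapping transcripts.

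Csf2 lies on chromosome 11 (54247271 to 54249667, − strand) and was nearly absent from the libraries numbered 1. Its estimated counts there were 0, 5 and 5 in control, Chd8 and Tsc2 siRNA, and between 99 and 273 in the other 6 libraries. In normalized CPM, control libraries held 0, 6.10 and 11.7, Chd8 siRNA libraries 0.17, 7.14 and 9.25, and Tsc2 siRNA libraries 0.21, 9.73 and 7.82. A count of 0 in control library 1 allows up to 3 counts, or 0.115 CPM. Its single transcript Csf2-201 held all counts. No difference between siRNAs was detectable, and with the block the 95% interval of the log2 fold change was −0.71 to 0.81 for Chd8 and −0.58 to 0.96 for Tsc2 against control.

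Il34, the alternative ligand of Csf1r that neurons and keratinocytes are known to make, lies on chromosome 8 (110741829 to 110805924, − strand). It had 14 counts over all 9 libraries and 0 in 5 of them, all 3 Chd8 siRNA libraries among them. The smallest number taken as detected, 3 counts, was 0.0903 to 0.177 CPM, and no library held more than 6 counts of Il34, so no fold is given. Il34-201 held 64.3% and the noncoding Il34-202 35.7% of these few counts. Il34 overlaps the antisense gene Gm15894, which had 16 counts in all. Whether the quantification told the strands apart is not given in the sources used here.

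Csf3r, the receptor of Csf3, lies on chromosome 4 (126024550 to 126044440, + strand). Its control siRNA libraries 1, 2 and 3 held 276, 83.6 and 72.1 CPM, the Chd8 siRNA libraries 271, 69.4 and 56.9, and the Tsc2 siRNA libraries 288, 85.3 and 104. The libraries numbered 1 were the highest in every group, the reverse of Csf1 and Csf2. The log2 fold change against control was −0.12 (standard error 0.72) for Chd8 and 0.14 (standard error 0.72) for Tsc2 siRNA, with edgeR adjusted p = 1.00 in both. Tsc2 against Chd8 siRNA gave 0.26 (standard error 0.72), and 0.42 (standard error 0.12, edgeR adjusted p = 0.151, DESeq2 adjusted p = 0.0265 under 1.5-fold) in the blocked fit; Csf3r was higher in 3 of 3 pairs there, as in 15.9% of all genes. In the 6 libraries numbered 2 and 3 alone, a fit added after the values were seen, it was past the threshold (0.59, edgeR adjusted p = 0.0425). Csf3r-202 and Csf3r-201, both protein-coding, held 50.9% and 36.1% of its counts, and the noncoding Csf3r-204 held 8.43%.

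Csf1r, whose kinase activity microglia depend on for survival, lies on chromosome 18 (61100598 to 61132149, + strand). Control libraries held 572, 479 and 446 CPM, Chd8 siRNA libraries 488, 454 and 405, and Tsc2 siRNA libraries 479, 428 and 429. Both silenced groups averaged below control, and the groups overlapped. The log2 fold change was −0.15 (standard error 0.13) for Chd8 and −0.16 (standard error 0.13) for Tsc2 siRNA (edgeR adjusted p = 1.00 in both), and Csf1r was lower than control in 3 of 3 pairs for each; both comparisons share the control libraries. With the block the adjusted p was 0.37 and 0.413. Csf1r-201 held 91.3% of the counts and Csf1r-202 5.16%. The gene overlaps Hmgxb3 on the opposite strand, which had 7569 counts in all against 99276 for Csf1r, and whether the quantification used strand is not given in the sources used here.

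Csf2ra, the alpha chain of the receptor for Csf2, lies on chromosome 19 (61223957 to 61228429, − strand). It held 90.0, 76.9 and 66.3 CPM in control, 101, 109 and 89.8 after Chd8 siRNA, and 81.1, 72.4 and 78.1 in Tsc2 siRNA libraries. All 3 Chd8 siRNA libraries were above all 3 Tsc2 siRNA libraries, and they overlapped control only at control library 1. Against control, Chd8 siRNA gave a log2 fold change of 0.36 (standard error 0.14, 95% interval 0.05 to 0.68, edgeR adjusted p = 1.00) and was higher in 3 of 3 pairs. Tsc2 against Chd8 siRNA gave −0.37 (standard error 0.14, edgeR adjusted p = 1.00), with an exact permutation p of 0.1, the smallest that 3 against 3 libraries allow. Csf2ra was the 1 member of 8 whose groups did not overlap in that comparison, against 8.42% of all genes. With the block edgeR's adjusted p was 0.097 and 0.139, limma-voom's 0.0517 and 0.086, and DESeq2's 0.0124 and 0.0228, and the changes stayed below 1.5-fold in each. The protein-coding Csf2ra-201 held 64.8% of the counts, and the retained-intron transcripts Csf2ra-202 and Csf2ra-205 held 18.7% and 8.74%.

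**Figure D2:**
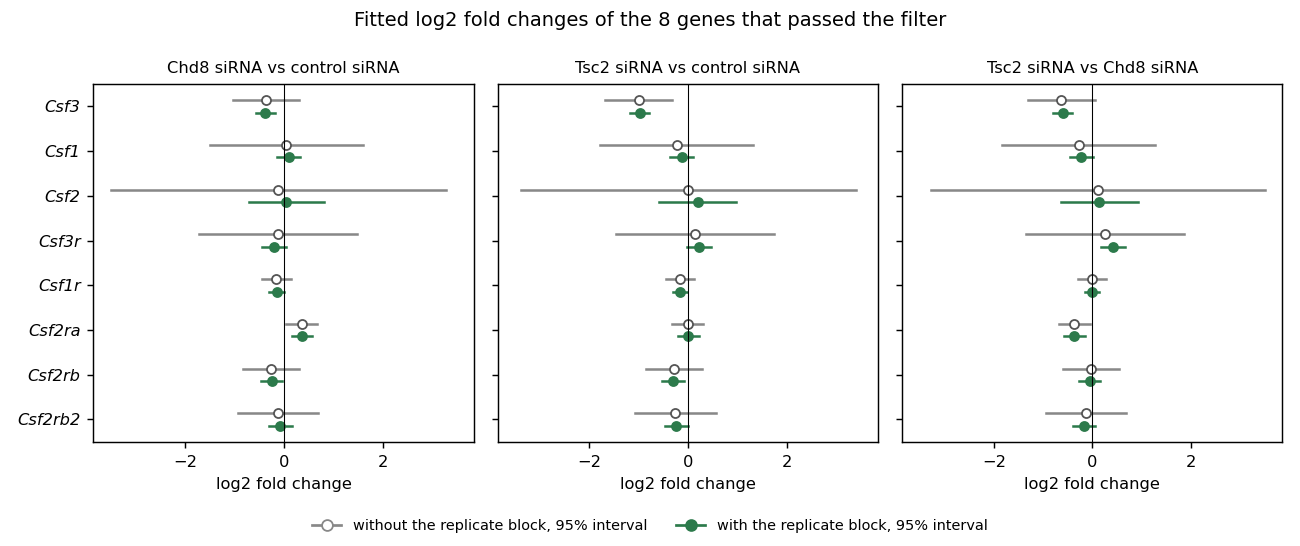
Fitted log2 fold change (x axis) of the 8 genes tested (y axis) in the 3 comparisons; points are edgeR estimates, open without and filled with the replicate block, and lines are 95% intervals. With the block, Csf3 lies at −0.38, −0.98 and −0.60 and Csf2ra at 0.37, 0.00 and −0.37, and the intervals of Csf2, Csf1 and Csf3r, wide without the block, are much narrower with it.

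The beta chains Csf2rb and Csf2rb2 lie close together on chromosome 15, Csf2rb at 78325752 to 78353847 (+ strand) and Csf2rb2 at 78282507 to 78305721 (− strand). Csf2rb pairs with the alpha chains of the receptors for Csf2, interleukin-3 and interleukin-5. The coding sequences of Csf2rb-201 and Csf2rb2-201 aligned over 2628 bases, of which 2503 were identical (95.2%), and the longest identical run was 242 bases. Of all runs of 31 bases in Csf2rb transcripts, 18.8% were also found in Csf2rb2 transcripts, and 28.6% the other way round. Reads that lie wholly within shared sequence cannot be assigned to either gene by sequence. The share of such reads was not measured, so how uncertain the levels of both genes are is not known. The windows below show where the genes can and cannot be told apart. In the most different 60 coding bases, 13 differ and are in capitals (GENCODE, GRCm38; Csf2rb at chr15:78338893-78338952, + strand; Csf2rb2 at chr15:78294379-78294438, − strand), and a window inside the longest identical run is the same in both genes (Csf2rb at chr15:78348668-78348727; Csf2rb2 at chr15:78284721-78284780).
Csf2rb, most different window: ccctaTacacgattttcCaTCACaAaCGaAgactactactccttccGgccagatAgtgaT
Csf2rb2, most different window: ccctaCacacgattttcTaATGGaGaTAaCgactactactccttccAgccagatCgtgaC
Csf2rb and Csf2rb2, identical window: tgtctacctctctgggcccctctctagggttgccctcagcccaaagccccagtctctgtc

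Csf2rb held 138, 176 and 107 CPM in control, 133, 124 and 93.5 after Chd8 siRNA, and 135, 134 and 75.3 in Tsc2 siRNA libraries. Csf2rb2 held 83.9, 198 and 111 in control, 93.4, 163 and 106 after Chd8 siRNA, and 90.0, 161 and 77.9 in Tsc2 siRNA libraries. Neither gene separated the groups, and both were at their lowest in Tsc2 siRNA library 3. The log2 fold changes of Csf2rb were −0.26 (standard error 0.26) for Chd8 and −0.29 (standard error 0.26) for Tsc2 siRNA against control, and those of Csf2rb2 −0.12 (standard error 0.36) and −0.26 (standard error 0.36), all with edgeR adjusted p = 1.00. Csf2rb was lower than control in 3 of 3 pairs after either siRNA, by −0.05, −0.50 and −0.19 for Chd8 and −0.03, −0.39 and −0.50 for Tsc2. Csf2rb-201 held 83.6%, the retained-intron Csf2rb-205 9.25% and Csf2rb-204 5.02% of the counts of Csf2rb, and Csf2rb2-201 and Csf2rb2-202 held 71.5% and 27.6% of those of Csf2rb2.

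The balance of the beta chains followed the replicate number. Csf2rb2 made up 37.8%, 41.2% and 40.0% of the counts of both genes in the control, Chd8 and Tsc2 siRNA libraries numbered 1. The shares were 53.0%, 56.7% and 54.5% in those numbered 2, and 51.0%, 53.2% and 50.8% in those numbered 3. The ranges of number 1 and of numbers 2 and 3 did not overlap, and at each number the share was highest in the Chd8 siRNA library.

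**Figure D3:**
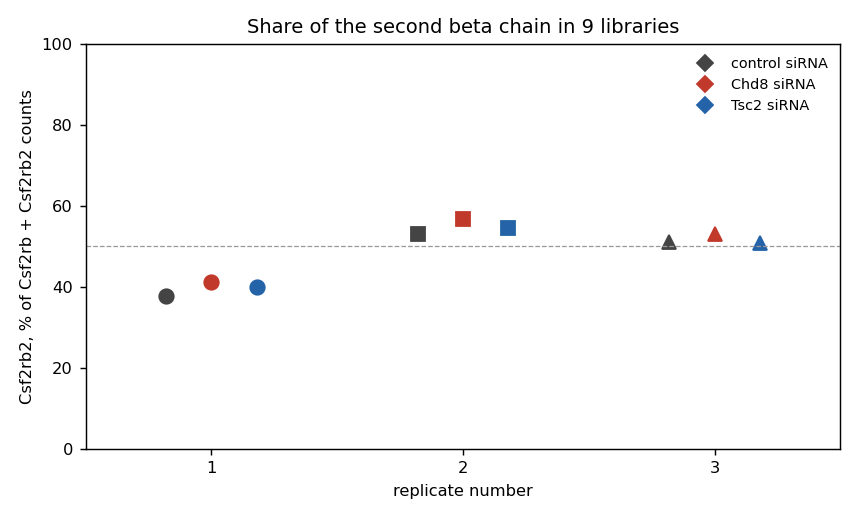
Share of Csf2rb2 in the estimated counts of Csf2rb and Csf2rb2 together (y axis, %) by replicate number (x axis), 1 point per library, coloured by siRNA; the dashed line marks 50%. The libraries numbered 1 sit between 37.8% and 41.2% and the other 6 between 50.8% and 56.7%.

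Since Csf3 was chosen on Tsc2 against control and its libraries enter the other comparisons, the counts over the family are given for the other 7 members tested. Of these, edgeR called 0 in any of the 3 comparisons (FDR under 0.05 and at least 1.5-fold), where the background over all genes was 0.0% in each, and DESeq2 and limma-voom without the block also called 0. At an unadjusted p under 0.05 there was 1 member for Chd8 against control (Csf2ra; 3.81% of all genes), 0 for Tsc2 against control (2.58%) and 1 for Tsc2 against Chd8 (Csf2ra; 3.09%). With the replicate block edgeR called 0 of the 7 in each comparison, against 0.529%, 0.387% and 0.221% of all genes, and 3, 3 and 2 of them had an unadjusted p under 0.05, against 12.8%, 10.7% and 10.7%. For Chd8 against control no member had groups free of overlap, where 9.05% of all genes had. The same direction at all 3 replicate numbers was seen in 5 of 7 for Chd8 against control (36.0% of all genes), in 3 of 7 for Tsc2 against control (31.9%) and in 3 of 7 for Tsc2 against Chd8 (32.1%). By direction, 3 were lower and 2 higher for Chd8 against control (18.3% and 17.7% of all genes), 2 lower and 1 higher for Tsc2 against control (16.3% and 15.6%), and 2 lower and 1 higher for Tsc2 against Chd8 (16.2% and 15.9%). The median log2 fold change of the 7 was −0.12, −0.16 and −0.03, beside −0.018, −0.019 and −0.004 over all genes.

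Levels of different genes were compared per transcript length, in TPM over all 9 libraries. Csf1r was the highest with 76.7 ± 9.58 TPM (SD, n = 9), above 97.1% of the genes tested. Csf3 followed with 39.8 ± 17.5, Csf3r with 32.1 ± 21.8 and Csf2ra with 29.2 ± 4.55. Csf1 (18.4 ± 11.6), Csf2rb (17.8 ± 3.60) and Csf2rb2 (14.6 ± 4.11) came next, then Csf2 with 3.67 ± 3.02 and Il34 with 0.0568 ± 0.125. Among neighbours in this order, Csf1r was above Csf3 and Csf2rb2 above Csf2 in 9 of 9 libraries. The neighbours from Csf3 to Csf2rb2 did not differ beyond their spread, with the upper gene above the lower in 3 to 7 of 9 libraries. The ratio of Csf3 to Csf3r TPM in libraries 1, 2 and 3 was 1.01, 1.78 and 3.34 in control, 0.842, 1.61 and 3.17 after Chd8, and 0.464, 1.16 and 1.30 after Tsc2 siRNA. It was lowest in the libraries numbered 1 of each group and, at each number, in Tsc2 siRNA, where Csf3 was chosen for its lower level.

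Most of these genes also differed between replicate numbers. In an F-test of the block added after the values were seen (edgeR, FDR 0.05), 7 of the 8 members differed between replicate numbers, all but Csf2ra (adjusted p = 0.267), against 25.0% of all genes. Csf1 was 3.77-fold lower in number 1 than in the mean of numbers 2 and 3 (edgeR adjusted p = 7.66e-09), and Csf3r was 3.60-fold higher (edgeR adjusted p = 9.40e-09). Csf3 differed most between numbers 3 and 2, by a log2 difference of 0.81, and Csf2rb (−0.66) and Csf2rb2 (−0.83) were lower in number 3 than in number 2. The median range over the 3 numbers was 0.88 on the log2 scale for the members and 0.57 for all genes.

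Markers of astrocytes, which are the bulk of mixed glial cultures, also differed between replicate numbers. The summed level of 9 astrocyte markers was 2.46 to 2.68 TPM in the libraries numbered 1, 3.48 to 4.70 in those numbered 2 and 10.1 to 17.9 in those numbered 3, and 8 of the 9 differed between numbers by the F-test, each lower in number 1 than in the mean of numbers 2 and 3 (Gja1 was higher in number 1 than in number 2). By group the sum was 2.58 to 17.9 in control, 2.68 to 10.1 in Chd8 and 2.46 to 11.5 in Tsc2 siRNA, and no astrocyte marker was called between siRNAs. Fibroblast markers had a sum of 0.884 to 1.26 TPM in number 1, 1.08 to 2.602 in number 2 and 2.95 to 6.42 in number 3, and all 4 of those tested differed between numbers, 3 lower and 1 higher in number 1 than in the mean of the others. Oligodendrocyte-lineage markers had sums of 4.50 to 5.52, 4.21 to 4.81 and 2.25 to 4.09 TPM, and 4 of 4 tested differed, 3 of them higher in number 1. The part of these cell types in the levels of Csf1, Csf2 and Csf3r was not tested. Neutrophils, the cells best known for Csf3r, had a marker sum of 0.516 to 1.07 TPM in number 1, 0 to 0.342 in number 2 and 0.269 to 0.723 in number 3, and S100a9, Elane, Ly6g and Ngp were at 0 in all 9 libraries. Of 13 microglia markers tested, 12 differed between replicate numbers, 6 higher and 6 lower in number 1 than in the mean of the others.

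**Figure D4:**
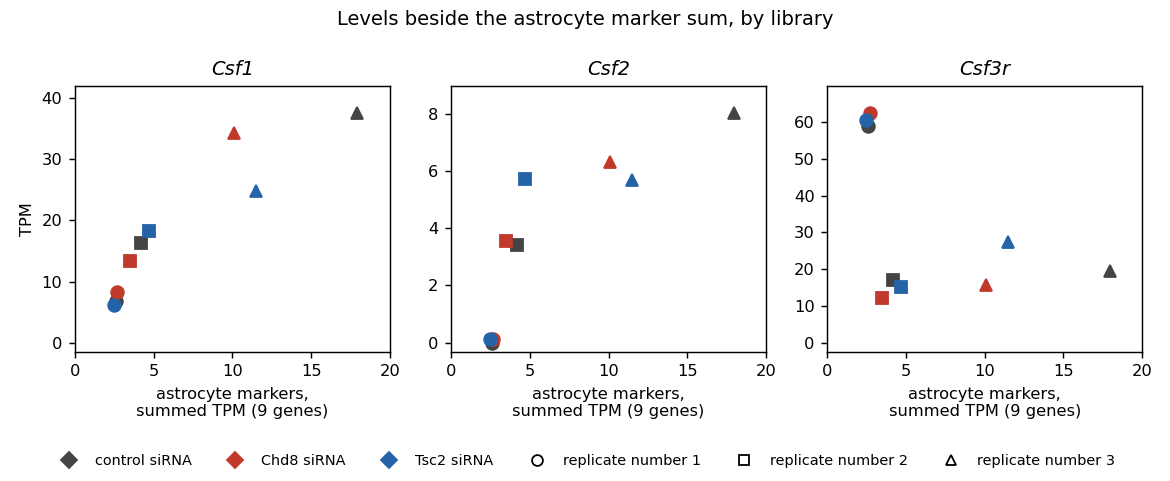
TPM of Csf1, Csf2 and Csf3r (y axes) against the summed TPM of 9 astrocyte markers (x axis), 1 point per library; colour gives the siRNA and shape the replicate number. The 3 libraries numbered 1, at a marker sum of 2.46 to 2.68, hold the lowest Csf1 and Csf2 and the highest Csf3r, at 58.8 to 62.4 TPM. The marker sum was 3.48 to 4.70 in number 2 and 10.1 to 17.9 in number 3. Mean TPM there was 14.8 and 20.9 for Csf3r and 4.24 and 6.67 for Csf2. The larger step of the marker sum thus lay between numbers 2 and 3, and that of Csf2 and Csf3r between 1 and 2.

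Because Csf1 and Csf2 were low and Csf3r high in the same 3 libraries, their promoters are shown. The RefSeq table (GRCm38.p6) held 5 of the 9 members: Csf1, Csf2, Csf3r, Csf2ra and Csf2rb2. Each sequence runs from 250 bases before to 50 bases after the annotated start, with motif matches on either strand in capitals. The motifs searched were GAGGAA (a PU.1 core), TTGCNNAA (C/EBP), TGANTCA (AP-1), the TATAAA box and the NF-kB motif, which occurred in 28.3%, 10.8%, 7.81%, 13.6% and 4.51% of all 32851 promoters of that length. The capitals mark 1 NF-kB match in Csf1 (chr3:107760420-107760719, − strand), 1 C/EBP match in Csf2 (chr11:54249850-54250149, − strand) and 1 PU.1 core in Csf3r (chr4:126024409-126024708, + strand). In Csf2 the RefSeq start lies 232 bases upstream of the GENCODE start. In Csf3r it lies downstream of the GENCODE start (126024550), and the PU.1 core lies between these starts. A match is a description of these letters and not a binding site.
Csf1 promoter: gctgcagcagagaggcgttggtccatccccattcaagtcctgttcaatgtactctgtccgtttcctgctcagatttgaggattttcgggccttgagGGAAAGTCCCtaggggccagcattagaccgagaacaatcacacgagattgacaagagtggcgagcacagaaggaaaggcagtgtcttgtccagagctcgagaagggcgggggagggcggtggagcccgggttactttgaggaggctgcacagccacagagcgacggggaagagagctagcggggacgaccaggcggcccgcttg
Csf2 promoter: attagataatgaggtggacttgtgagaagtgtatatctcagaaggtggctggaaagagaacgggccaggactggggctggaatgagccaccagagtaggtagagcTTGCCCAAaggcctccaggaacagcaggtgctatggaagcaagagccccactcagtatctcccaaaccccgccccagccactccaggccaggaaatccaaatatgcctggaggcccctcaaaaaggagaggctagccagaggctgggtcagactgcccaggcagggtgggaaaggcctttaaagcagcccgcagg
Csf3r promoter: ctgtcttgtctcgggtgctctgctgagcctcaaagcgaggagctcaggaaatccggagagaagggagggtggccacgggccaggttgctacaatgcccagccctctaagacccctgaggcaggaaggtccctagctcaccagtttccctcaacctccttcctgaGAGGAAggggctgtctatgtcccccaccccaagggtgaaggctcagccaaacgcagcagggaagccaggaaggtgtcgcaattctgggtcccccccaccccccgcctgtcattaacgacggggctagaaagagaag

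Csf2ra and Csf2rb2, whose promoters are not printed, each held 2 PU.1 cores and none of the other motifs. PU.1 itself (Spi1, the lineage factor of macrophages that binds the core) was 368, 393 and 299 CPM in control libraries, with a log2 fold change of 0.23 (standard error 0.07) after Chd8 and 0.31 (standard error 0.07) after Tsc2 siRNA with the block, and edgeR adjusted p = 0.153 and 0.0737.

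The signalling genes below the receptors were read from fixed lists. Of 18 genes of the JAK-STAT pathway and its feedback, which carries the signal of Csf2 and Csf3 receptors, all 18 were tested. None was called without the block in any comparison, with 1 gene each at an unadjusted p under 0.05 (3.81%, 2.58% and 3.09% of all genes). With the block 7, 4 and 4 genes had an unadjusted p under 0.05 (12.8%, 10.7% and 10.7% of all genes) and, at the FDR and fold threshold that 0.529%, 0.387% and 0.221% of all genes passed, 1 was called higher after Chd8 siRNA, none after Tsc2 siRNA and none between them. Cish, a feedback inhibitor induced by Stat5, was 4.34, 5.42 and 8.24 CPM in control, 9.01, 17.9 and 13.1 after Chd8 siRNA, and 4.48, 8.62 and 9.34 in Tsc2 siRNA libraries. Every Chd8 siRNA library was above every control library, a difference of 1.14 on the log2 scale (standard error 0.21) for which edgeR's adjusted p was 0.0194 with the block and 1.00 without. Of 6 fits without a library, 4 lost the call (control 2 or 3, Chd8 1 or 2), with adjusted p from 0.0332 to 0.151 over the 6 fits, and it was lost in numbers 2 and 3 alone (edgeR adjusted p = 0.0523). With the block DESeq2 (adjusted p = 0.000178) and limma-voom (adjusted p = 0.0132) made the call. Stat5a, a transcription factor activated by these receptors, was 28.7, 37.6 and 30.0 CPM in control and 39.6, 57.0 and 47.5 in Tsc2 siRNA libraries, which did not overlap. Its log2 change of 0.58 (standard error 0.10; with the block, edgeR adjusted p = 0.0169) fell just short of 1.5-fold, and its close relative Stat5b gave 0.43 (standard error 0.11, edgeR adjusted p = 0.102). Jak2, the kinase bound to the beta chain, gave 0.27 (standard error 0.07, edgeR adjusted p = 0.0657) after Chd8 siRNA. The list's median log2 fold change without the block was 0.08, 0.06 and −0.02 in the 3 comparisons, beside −0.018, −0.019 and −0.004 over all genes.

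Of 20 genes of Csf1r signalling and the myeloid lineage, all were tested and none was called without the block. An unadjusted p under 0.05 was found in 1, 0 and 2 genes without the block (3.81%, 2.58% and 3.09% of all genes) and in 7, 8 and 5 with it (12.8%, 10.7% and 10.7%). With the block, Cebpa alone was called, lower after Chd8 siRNA (0.529% of all genes were called there). Cebpa, a transcription factor of the myeloid lineage known to drive Csf3r, was 5.36, 6.47 and 7.98 CPM in control, 2.95, 2.74 and 2.96 after Chd8 siRNA, and 3.76, 4.26 and 6.73 in Tsc2 siRNA libraries. The Chd8 siRNA libraries lay below all others, with a log2 change of −1.16 (standard error 0.25); edgeR's adjusted p was 0.0404 with the block and 1.00 without. None of the 6 fits that left out a library kept the call, whichever library it was, with log2 fold changes of −1.35 to −0.98 and edgeR adjusted p of 0.0599 to 0.244. It was also lost in numbers 2 and 3 alone (edgeR adjusted p = 0.0606) and was made by limma-voom with the block (adjusted p = 0.0189), while DESeq2 gave no adjusted p. Src, a kinase recruited by Csf1r, passed the FDR after Chd8 siRNA but not the fold (0.41, standard error 0.07, edgeR adjusted p = 0.0142). Inpp5d, a phosphatase that restrains the pathway, gave −0.64 (standard error 0.14, edgeR adjusted p = 0.07) for Tsc2 against Chd8 siRNA with the block, and Runx1, a transcription factor of blood cell development, −0.28 (standard error 0.07, edgeR adjusted p = 0.0992) for Tsc2 against control. The median was −0.03, 0.05 and 0.07.

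Of 19 inducers of Csf3, factors of mRNA decay and cytokines known to be induced with it, all were tested and none was called without the block. Here 0, 1 and 0 genes had an unadjusted p under 0.05 without the block (3.81%, 2.58% and 3.09% of all genes) and 5, 4 and 2 with it (12.8%, 10.7% and 10.7%). With the block, Cxcl1 alone was called, lower after Chd8 siRNA (against 0.529% of all genes). This neutrophil-attracting chemokine was 72.1, 174 and 557 CPM in control, 45.0, 108 and 252 after Chd8 siRNA, and 34.4, 171 and 374 in Tsc2 siRNA libraries. The groups overlapped, but each Chd8 siRNA library was below the control of its number, with a log2 change of −0.84 (standard error 0.16); edgeR's adjusted p was 0.0193 with the block and 1.00 without. The call was lost without control library 1 or 3 or Chd8 library 2 or 3, with edgeR adjusted p of 0.0126 to 0.21 over the 6 fits. It was kept in numbers 2 and 3 alone (edgeR adjusted p = 0.00302) and, with the block, by DESeq2 (adjusted p = 0.0354) and limma-voom (adjusted p = 0.00269). Ptgs2, the inducible enzyme of prostaglandin synthesis, was 3671, 4668 and 4312 CPM in control and 2726, 3536 and 3406 in Tsc2 siRNA libraries. Its groups did not overlap, and the log2 change of −0.39 (standard error 0.07; with the block, edgeR adjusted p = 0.0115) stayed under 1.5-fold, beside −0.98 for Csf3. Il1a gave −0.42 (standard error 0.13, edgeR adjusted p = 0.227) for Tsc2 against Chd8 siRNA and the mRNA decay factor Zfp36 0.32 (standard error 0.11, edgeR adjusted p = 0.207) for Chd8 against control. The median of this list was −0.01, −0.04 and 0.01.

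**Figure D5:**
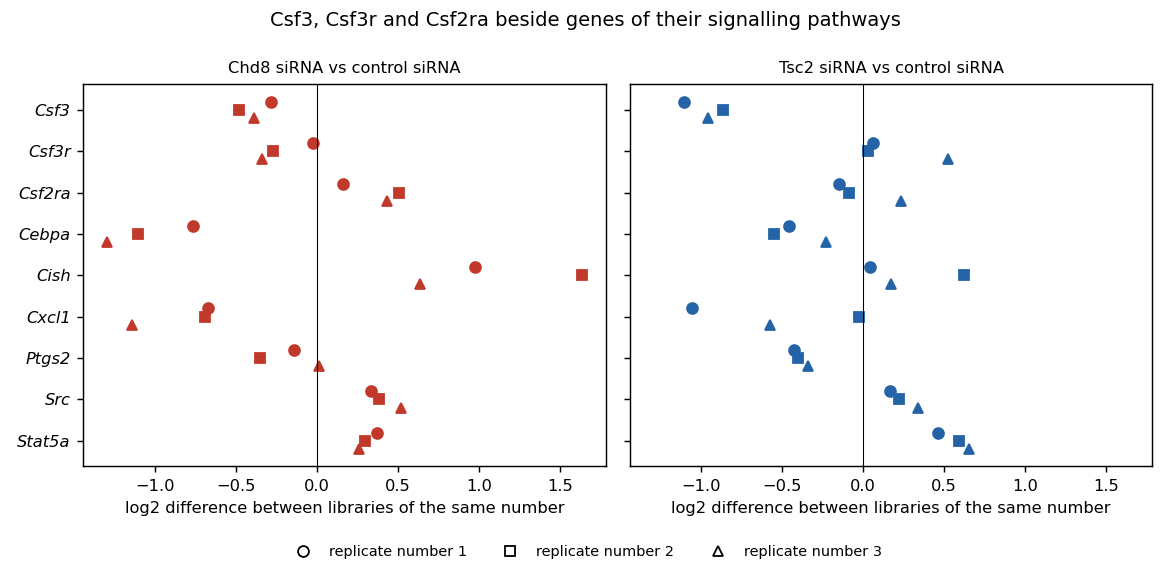
Log2 difference in CPM (pseudocount 0.5) between silenced and control libraries of the same replicate number (x axis) for Csf3, Csf3r, Csf2ra and the 6 list genes past an FDR of 0.05 with the block (y axis); shape gives the number, left Chd8 and right Tsc2 siRNA. Csf3 lies at −0.87 to −1.11 after Tsc2 siRNA and −0.28 to −0.48 after Chd8 siRNA, and Cish at 0.64 to 1.64 after Chd8 siRNA.

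Among 18 related receptors and ligands 14 were tested (Il3, Il5, Il5ra and Il11 were too low), and none was called with or without the block. In the 3 comparisons 1, 0 and 0 had an unadjusted p under 0.05 without the block (3.81%, 2.58% and 3.09% of all genes) and 4, 3 and 1 with it (12.8%, 10.7% and 10.7%). Il6, an inflammatory cytokine, gave −0.28 (standard error 0.08, edgeR adjusted p = 0.104) after Chd8 and −0.30 (standard error 0.08, edgeR adjusted p = 0.117) after Tsc2 siRNA with the block. Il3ra, which shares the beta chain Csf2rb with Csf2ra, was 6.95 to 7.81 CPM in control and 8.64 to 13.4 in Chd8 siRNA libraries and gave 0.57 (standard error 0.19, edgeR adjusted p = 0.184). Osmr, a receptor for oncostatin M, gave −0.96 (standard error 0.33, edgeR adjusted p = 0.279) for Tsc2 against control, and Il6st, the signal-transducing chain of the interleukin-6 family, 0.36 (standard error 0.14, edgeR adjusted p = 0.341) and the low-level stem cell factor receptor Kit −1.64 (standard error 0.93, edgeR adjusted p = 0.574) for Tsc2 against Chd8 siRNA. The median was −0.12, −0.34 and −0.11.

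The replicate number also ran through these lists. It passed the F-test in 11 of 18 JAK-STAT genes, 15 of 20 Csf1r signalling genes, 16 of 19 genes of the Csf3 list and 7 of 14 related genes, against 25.0% of all genes. Of the 16 genes of the Csf3 list, 9 were lower in number 1 than in the mean of numbers 2 and 3 and 7 were higher. Picked after their values were seen, the cytokines Tnf (−2.22 on the log2 scale), Cxcl1 (−2.27) and Il1a (−3.38) were among the lower and the transcription factors Cebpb (0.73) and Cebpd (1.03) among the higher. Csf3 itself was higher there by 0.38, but its mean CPM was 127, 72.7 and 128 in numbers 1, 2 and 3, so number 2 alone stood apart. Il6, of the related genes, was lower in number 1 (−2.23).

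The genes whose log2 CPM over the 9 libraries ran closest to Csf3 were Gm37787 (Pearson r = 0.97), Man1c1 (0.96), Ppargc1a (0.96), Rffl (0.96) and Gm44153 (0.95), all lower in each Tsc2 siRNA library than in the control of its number, which their choice for likeness to Csf3 largely fixes. Gm37787 stayed below 1 CPM and lies antisense to Slamf7, which had 330394 counts in all, so its reads cannot be told from those of Slamf7 without strand. The closest to Csf1r were Rest (0.96), Terf2 (0.94), Akap10 (0.93), Birc6 (0.93) and Otud3 (0.93). Within the family, r was 0.21 between Csf3 and Csf3r, −0.81 between Csf1r and Csf1, −0.84 between Csf1r and Csf2, and 0.76 between Csf1r and Csf3r. These values are descriptions over 9 libraries that share 3 replicate numbers and 3 siRNAs.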

How the data were processed

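The authors quantified reads with salmon 0.14.1 on mm10 and imported them with tximport; they deposited estimated counts per transcript, not normalized, for 9 libraries. The transcript annotation release and the use of strand are not given in the sources used here. Per the labels a stranded SMARTer kit was used, whereas the study's methods give an Illumina kit for total RNA. Between 26.8% and 32.1% of a library's values were not whole. Counts were rounded and summed to genes with GENCODE mouse release M21 (GRCm38), which matched 139852 of 140948 transcripts; the other 1096 held 0.27% of counts and were left out. TPM was computed from counts and annotated transcript lengths.

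Libraries were grouped by the siRNA in their titles. Genes were tested with edgeR 4.0.16 (R 4.3.3) after filterByExpr and TMM, with all 9 libraries in 1 quasi-likelihood fit, Benjamini-Hochberg adjustment over 16272 genes and calls at an FDR under 0.05 with at least a 1.5-fold change. The fit, checked on simulated data, had a biological coefficient of variation of 0.409, and 0.234 with the replicate block. Single genes were compared by two-sided exact permutation on log2(CPM + 0.5). Deviations from group means correlated at 0.244 to 0.521 across genes in the 9 pairs of libraries with the same number and at −0.381 to 0.036 in the other 18. Deviations within a group cancel out, so the lower values of the 18 follow from the higher values of the 9. The numbers, which come from the titles, were taken as pairs on the values at equal numbers. DESeq2 1.42.0, limma 3.58.1, other scalings, filters and left-out libraries were alternatives. Floors of 3 counts cover counting error only. Figures used matplotlib 3.10.9.

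The members and gene lists were chosen with earlier results of these data known. Genes named are all members; per list those called and the 2 with the lowest p with the block per comparison; the 5 most like Csf3 and the 5 most like Csf1r; and transcripts with at least 5% of a member's counts. A gene that this rule names is not reported here. Tnf, Il6, Il1a and Cxcl1 by replicate number, Cebpb, Cebpd and the promoters shown were chosen after their values were seen. Marker sums of other cell types ranged, over the 9 libraries, from 137 to 250.5 TPM for border macrophages (Lyve1 at 0), 2.25 to 5.52 for the oligodendrocyte lineage, 0.603 to 3.33 for neurons, 0.884 to 6.42 for fibroblasts and 4.79 to 6.42 for endothelial cells; with the block 1 fibroblast marker was called for Chd8 against control and no other marker.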

Additional observations from a re-analysis of the deposited data

How the results depend on the processing

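With the filter on low counts and without the replicate block edgeR called no gene, whichever library was left out, which does not show that no gene changed. The block, as a pairing of equal numbers, gave 86, 63 and 36 called genes for Chd8 against control, Tsc2 against control and Tsc2 against Chd8 siRNA. Csf3 was chosen on Tsc2 siRNA libraries, so its calls in the last 2 comparisons are not counted. Of the other 7 members, edgeR, DESeq2 and limma-voom called 0 in any comparison and alternative (3, 3 and 2 at an unadjusted p under 0.05 in edgeR with the block), except Csf3r, 1 member, in the fit of numbers 2 and 3. DESeq2's Wald test called 9, 5 and 5 genes, with the block 141, 116 and 100; limma-voom with the block called 143, 89 and 59. Without a filter 2, 1 and 0 genes were called. In libraries numbered 2 and 3 alone (added after seeing the data; block), 108, 128 and 141 genes were called, with Csf3r for Tsc2 against Chd8. Leaving out a library with the block gave 20 to 81, 7 to 131 and 4 to 129 genes, the fewest without control 3, control 3 and Chd8 3 and the most without control 1, Tsc2 1 and Tsc2 1. The cause of these differences was not tested.

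Among log2 fold changes of single members, 75 values changed sign, and none of them was called. Csf2 turned for Chd8 against control with the block (0.0487; DESeq2 0.13) and limma-voom (1.18). For Tsc2 against control Csf2 turned with the block (0.19; DESeq2 0.28), DESeq2 size factors (0.0025), limma-voom (1.85), no filter (0.0182) and numbers 2 and 3 (0.0195), and for Tsc2 against Chd8 with limma-voom and block (−0.0012). Csf2ra turned for Tsc2 against control with the block (0.001; DESeq2 0.0037; limma-voom 0.0019), no filter (0.0106), protein-coding transcripts (0.0934) and numbers 2 and 3 (0.0816). For Tsc2 against Chd8, library totals turned Csf1r (0.0229) and Csf2rb (0.0024), and numbers 2 and 3 turned Csf1r (0.0002). With a library left out, values of both signs were found for Csf1 (−0.5498 to 0.7315, −0.6528 to 0.4491 and −0.6878 to 0.3269 in the 3 comparisons), Csf2 (−0.7334 to 0.8844, −0.5901 to 0.9937 and −0.4698 to 0.7388), Csf2rb2 (−0.3923 to 0.3108, −0.6401 to 0.172 and −0.5224 to 0.1366) and Csf3r (−1.1901 to 0.7713, −0.6049 to 1.0325 and −0.4886 to 1.3344). The same held for Csf2ra for Tsc2 against control (−0.1097 to 0.112) and for Csf1r (−0.0766 to 0.0545) and Csf2rb (−0.1614 to 0.2049) for Tsc2 against Chd8. The block changed no call among the 7 members other than Csf3.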
